A study of Mus musculus with 10 samples.

Results

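Gpr179 encodes an orphan G protein-coupled receptor, and the results below describe the CpG methylation of its locus in testis DNA of F2 mice, with attention to a pair of neighbouring 1 kb tiles of partly methylated CpGs inside the gene. The assay, reduced representation bisulfite sequencing, samples restriction fragments rich in CpGs and reads unmethylated cytosines as thymines. The groups were 5 libraries labelled arsenic and 5 labelled control, all from testis. The labels name the generation and the group, describe the arsenic samples as treated, and give no dose, age, strain or treated ancestor. Nor do they tie each library to an animal of its own, so p-values measure the spread between libraries, which may be technical.

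The locus was taken as Gpr179 and 5 kb beyond both ends (mm10, chromosome 11, 97327109 to 97357356), and it held 106 covered cytosines on 80 CpGs, of 1988759 cytosines on 1407384 CpGs in the whole table. The tile pair (97337001 to 97338000 and 97338001 to 97339000) held 39 of these cytosines on 32 CpGs, and the rest of the locus held 67 cytosines on 48 CpGs. The pair had been picked because its tiles had among the smallest p-values for arsenic against control. The difference between the groups in the pair is therefore given as a description and not as a test.

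Gpr179 is known from the retina, where it sits at the dendritic tips of ON bipolar cells. There it works with the glutamate receptor mGluR6 (Grm6) and the channel Trpm1, and anchors RGS proteins that speed up the G protein cycle; loss of the human gene causes a form of congenital night blindness. CpG methylation is symmetrical: maintenance methyltransferase copies it to the new strand after replication, so both strands of a CpG usually carry the same state in a DNA molecule. In mammals most CpGs inside genes are methylated, and CpG-dense gene starts usually are not.

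Gpr179 lies on the minus strand, from its start at 97352356 to its 3' end at 97332109, and all 106 covered cytosines lay inside the gene, with 0 in the flanks. The nearest covered cytosine lay 2617 bp downstream of the start, so the methylation of the promoter was not measured. The promoter sequence is shown as a description, and why it held no covered cytosine was not tested. The RefSeq promoter (build GRCm38.p6, chr11:97352307-97352606, minus strand, 250 bases before and 50 after the start) reads 5' to 3' as follows, with CpGs in capitals.
Gpr179 promoter: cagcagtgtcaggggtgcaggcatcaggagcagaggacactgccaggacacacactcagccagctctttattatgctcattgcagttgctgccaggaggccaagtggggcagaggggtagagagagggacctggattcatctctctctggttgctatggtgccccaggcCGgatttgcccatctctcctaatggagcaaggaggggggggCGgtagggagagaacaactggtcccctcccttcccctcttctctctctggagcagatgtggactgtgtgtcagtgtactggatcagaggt
These 300 bases hold 2 CpGs, where the median of 32851 RefSeq promoters of this length is 7, and 23.3% of the promoters hold as few. The sequence CCGG, which reads the same on both strands and contains a CpG, occurs 1 time; it occurs in 52.8% of the promoters. The tile pair lay 13356 to 15355 bp downstream of the start, in the part of the gene nearer its 3' end. Exons and introns were not placed.

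Read calls over all cytosines, which count a read at every cytosine it covers, totalled 87658994 to 100355708 in the arsenic libraries and 69771871 to 92434984 in the control libraries. The median per cytosine was 35 to 40 reads in arsenic and 27 to 36 reads in control. Control libraries 4 and 5 stood apart, with 16.9% and 18.8% of cytosines fully methylated, against 11.1% to 14.9% in the remaining 8 libraries. Over the tile pair the read calls numbered 988 to 1712 in the arsenic libraries and 1033 to 1285 in the control libraries. As a check of the tissue, the region upstream of H19, methylated in male germ cells, stood at 92.9% to 98.5% in arsenic and 92.5% to 100% in control. The mean over the 11 measured of 15 maternally methylated imprinted regions, which male germ cells leave unmethylated and somatic cells carry on the maternal allele, was 7.64% to 9.29% in arsenic and 4.498% to 11.99% in control. Over 8 germ cell genes the mean at the better covered end of the gene was 17.8% to 23.3% in arsenic and 20.4% to 23.2% in control. Only 4 of the 8 stood under 20%, and the better covered end need not be the start, so this marker is mixed. The group ranges of all of these markers overlapped.

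**Figure D1:**
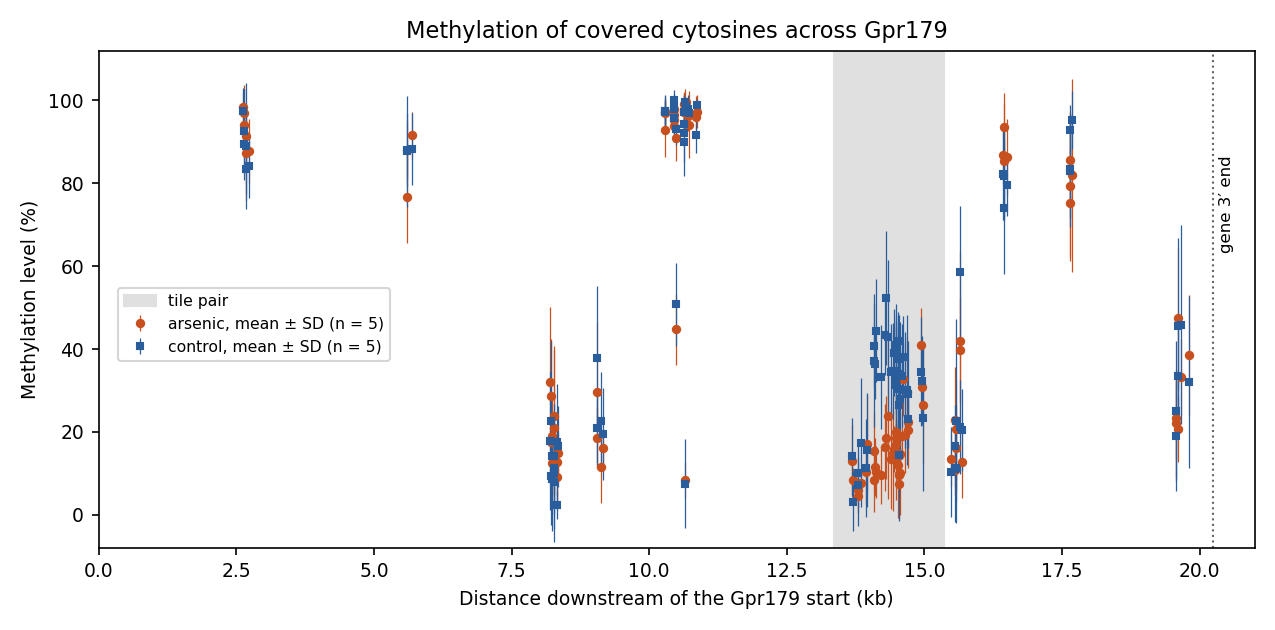
Methylation level (%) of the 106 covered cytosines by distance (kb) downstream of the Gpr179 start, with points at the mean and bars at the SD of 5 arsenic and 5 control libraries. The grey band marks the tile pair, where most control points lie above the arsenic points in the middle; low levels also lie in the 2 tiles nearer the start, beside the pair and by the 3' end.

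Gpr179 was not evenly methylated. Of the 12 tiles with covered cytosines, 10 had at least 3 covered CpGs, and 6 of these stood under 50% and 4 above. Levels of tiles are read-weighted, the methylated reads as a share of all reads over the tile. Going from the start towards the 3' end, the tile at 97349001 stood at 91.7% ± 3.01 (SD, n = 5) in arsenic and 87.9% ± 4.19 in control (n = 5). The tiles at 97344001 and 97343001 were low, at 16.4% ± 5.36 and 19.1% ± 6.76 in arsenic and 13.8% ± 8.89 and 25.3% ± 10.1 in control. The tile at 97341001, with 11 CpGs, stood at 89.3% ± 1.23 in arsenic and 89.2% ± 1.45 in control. Beyond the tile pair, the adjoining tile at 97336001 stood at 22.0% ± 4.19 in arsenic and 19.2% ± 6.69 in control. The tiles at 97335001 and 97334001 stood at 88.1% ± 5.74 and 83.3% ± 7.74 in arsenic and 79.3% ± 9.99 and 86.2% ± 6.99 in control. The last tile, at 97332001 by the 3' end, stood at 30.8% ± 9.51 in arsenic and 33.2% ± 13.0 in control. The gene alternated between tiles with group means of 79.3% to 91.7% and tiles with group means of 12.8% to 33.2%. The 2 tiles with fewer CpGs fell in the high class, that at 97342001 with 95.7% ± 1.98 in arsenic and 97.3% ± 1.82 in control, and that at 97346001 with 85.5% ± 5.38 in arsenic and 88.0% ± 7.72 in control, over 3 cytosines each.

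Set against the rest of the locus, the pair was less methylated. Against the low tiles alone, the average over all libraries joined arsenic and control libraries of opposite sign. The mean over its cytosines, each weighted equally, minus the mean over the other 67 was -35.2 percentage points (SD 8.41 over 10 libraries) and negative in 10 of 10 libraries. A two-sided exact sign-flip permutation test over the 10 within-library differences gave p = 0.00195, the smallest it can give. Of the 67 other cytosines, 37 lay in high tiles, at 88.5% in arsenic and 88.3% in control. Against such a rest, a pair named for its partly methylated level is bound to be lower, so the p-value is no independent evidence. Without control libraries 4 and 5 the difference was -36.0 points (exact p = 0.00781, again the smallest possible). Set against the 4 low tiles of the rest, a comparison added after seeing the data, the pair was 1.79 points higher (SD 9.11), with p = 0.537 in the same exact sign-flip permutation test. In that comparison the 5 arsenic libraries stood at -2.84 to -7.89 points and the 5 control libraries at 2.74 to 16.8 points. The difference was negative in every arsenic library and positive in every control library. This split restates the contrast that chose the pair, so nothing is read from it. The average joins opposite signs, and the low tiles were picked by their own level. Its p-value therefore does not show that the pair and the low tiles were alike. Of the 39 cytosines of the pair, 29 averaged 20% to 80% over the 10 libraries, 10 were lower and 0 higher, and the range was 5.72% to 37.8%. These averages pool groups that the pair was chosen to separate, with a mean of 16.1% in arsenic and 30.2% in control. Of the 67 others, 13 fell between 20% and 80%, 20 below and 34 above. Among the 30 of these in low tiles, 11 fell between 20% and 80%, 19 below and 0 above. Among all cytosines of the series 14.96% averaged 20% to 80%, and among all tiles 21.7%.

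**Figure D2:**
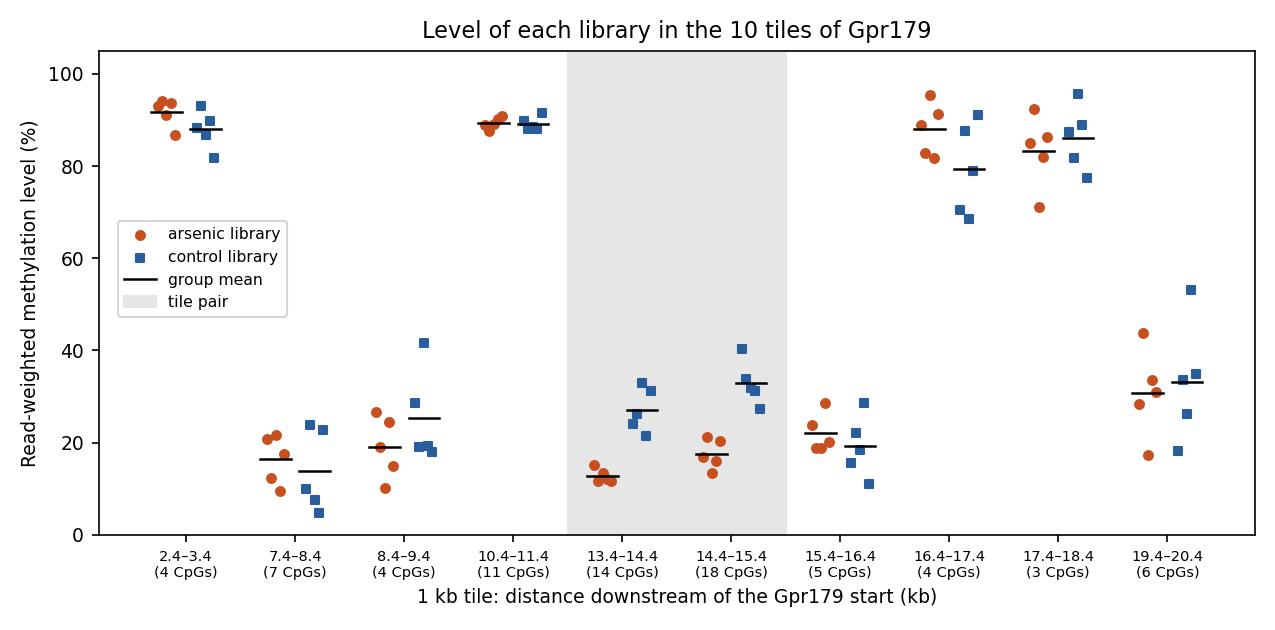
Read-weighted methylation level (%) of each library in the 10 tiles of Gpr179 with at least 3 covered CpGs, ordered by distance (kb) downstream of the start, with lines at group means and points spread sideways for clarity. In the 2 shaded tiles the 5 arsenic libraries lie below the 5 control libraries, and in the other 8 tiles the groups overlap.

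In the tile at 97337001 (18 CpGs) the level was 16.9%, 21.3%, 13.5%, 16.0% and 20.3% in arsenic libraries 1 to 5, against 40.4%, 33.8%, 31.8%, 31.2% and 27.3% in control libraries 1 to 5. In the tile at 97338001 (14 CpGs) it was 15.2%, 11.6%, 13.5%, 12.1% and 11.8% in arsenic libraries 1 to 5, against 24.1%, 26.2%, 32.9%, 21.4% and 31.1% in control libraries 1 to 5. All control libraries lay above all arsenic libraries in both tiles, with control library 5 the nearest to arsenic in the first and control library 4 in the second. Over all tiles, the groups did not overlap at 0.482% with arsenic lower and at 0.348% with arsenic higher. The pair was chosen on this contrast, so nothing is read from the count of 2. The mean differences were -15.3 points (17.6% ± 3.23 in arsenic and 32.9% ± 4.79 in control) and -14.3 points (12.8% ± 1.49 in arsenic and 27.2% ± 4.81 in control). A 95% Wilson interval spanned 4.18 to 9.88 points per library and tile. It covers counting error only and treats every read call as separate. It may be too narrow even for that, since cytosines may share reads and the counts hold no molecular identifiers.

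The values that chose the pair came from a logistic model with quasi-binomial errors, fitted to the read counts of 166008 tiles, with calls made at a Benjamini-Hochberg adjusted p under 0.05 with a difference of at least 10 points. It called 0% of tiles in either direction, while 9636 had an unadjusted p under 0.05, 5537 of them lower in arsenic, and limma called 1 tile, outside Gpr179. Among tiles lower in arsenic the pair held ranks 2 and 3 by p, with unadjusted p of 2.02e-05 and 2.22e-05 and an adjusted p of 0.506. Just inside a choice of the smallest 4, the tile on chromosome 3 from 152265001 had an unadjusted quasi-binomial p of 2.25e-05. Just outside it, the tile on chromosome 6 from 71632001 had 2.51e-05. A read-weighted difference of -10 points or lower was found at 0.779% of tiles.

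The call at Gpr179 depended on where the tile borders fell. With tiles starting 500 bp later, an alternative setting, the tile at 97337501 to 97338500 (25 CpGs) was the 1 tile called of 166202, with 16.0% ± 1.85 in arsenic and 33.5% ± 4.01 in control and an adjusted p of 0.0460 in the quasi-binomial model. This is the contrast that picked the locus, so the value is no independent test. Adjusted over both sets of tiles together, p was 0.0919. Without each library in turn the adjusted p was 0.0398 to 0.273, and the tile was called in 1 of 10 such fits, the one without control library 1. With limma the adjusted p of the shifted tile was 0.622, at a coverage of at least 20 reads it was 0.153, and without control libraries 4 and 5 it was 0.117.

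Single cytosines of the pair are described here on the contrast that chose it. Of the 39 cytosines, 35 had a lower mean in arsenic and 4 a higher one, and at 13 the groups did not overlap, all with arsenic lower. Without control libraries 4 and 5 the count was 16, but leaving out libraries can only keep or raise it. The pair's mean difference was then -15.98 points, against -14.1 points with all libraries. Over all cytosines, with all libraries, the groups did not overlap at 0.3% with arsenic lower and at 0.228% with arsenic higher. Since the contrast chose the pair, nothing is read from the count. The 13 lay between 97337793 and 97338278, a stretch of 486 bp with 22 covered cytosines on 17 CpGs, whose limits were set by these values, so a larger difference inside it than outside follows from the choice. There the mean level was 17.9%, 14.4%, 12.6%, 15.8% and 9.64% in arsenic libraries 1 to 5, against 43.9%, 34.8%, 36.2%, 30.1% and 36.0% in control libraries 1 to 5, a difference of -22.2 points. The 10 cytosines of the pair nearer the 3' end averaged 25.2% ± 3.84 in arsenic and 30.2% ± 8.45 in control, and the 7 nearer the start averaged 9.54% ± 2.38 in arsenic and 11.2% ± 5.98 in control. In both of these side stretches the groups overlapped. The highest control mean of a single cytosine was at 97338060 on the minus strand, at 28.6%, 11.1%, 29.6%, 16.0% and 7.69% in arsenic libraries 1 to 5, against 61.5%, 44.4%, 68.2%, 27.8% and 59.1% in control libraries 1 to 5. There control library 4 lay below arsenic libraries 1 and 3, so the groups overlapped. At 97338661 on the plus strand, 1 of the 4 cytosines with a higher mean in arsenic, the level was 8.28% ± 2.97 in arsenic and 3.16% ± 7.06 in control.

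**Figure D3:**
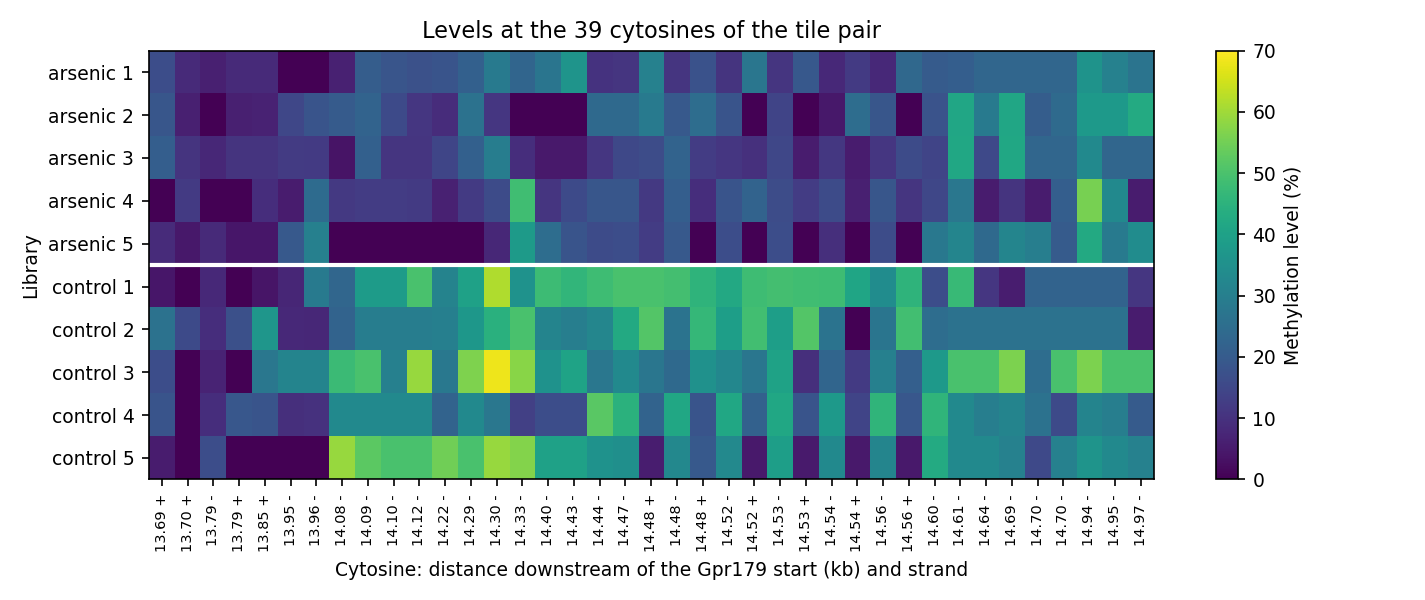
Methylation level (%) at the 39 cytosines of the tile pair (columns, by distance in kb downstream of the Gpr179 start, with strand) in the 5 arsenic libraries (upper rows) and 5 control libraries (lower rows). Control libraries reach higher levels in the middle columns, neighbouring columns of a strand resemble each other, and control library 5 is at 0% to 19.5% in its plus-strand columns.

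Neighbouring cytosines of a strand often had nearly the same coverage in every library, and such cytosines may share reads; the counts do not show which reads they are. Cytosines of a strand at most 400 bp apart, with coverage that differed by at most 15% in total from one to the next, were grouped into runs. The 39 cytosines formed 14 runs, 8 of them with more than 1 cytosine. In the minus-strand run of 9 cytosines from 97337385 to 97337759, control library 2 had 5 methylated reads at 8 of the 9 cytosines, of 19 or 20 reads, and arsenic library 1 had 5 to 9 of 24 to 26. That run stood at 25.2%, 32.5%, 26.5%, 19.9% and 30.1% in arsenic libraries 1 to 5, against 20.04%, 23.8%, 47.2%, 29.4% and 31.9% in control libraries 1 to 5, and the groups overlapped.

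Further runs of the minus strand lay nearer the start. The run of 6 cytosines from 97337793 to 97337881 stood at 9.82%, 16.5%, 14.3%, 18.1% and 15.8% in arsenic libraries 1 to 5, against 45.4%, 33.6%, 30.5%, 42.2% and 34.1% in control libraries 1 to 5, on 41 to 92 reads per cytosine. The run of 4 from 97338237 to 97338278 stood at 15.7%, 17.3%, 11.6%, 12.1% and 0% in arsenic libraries 1 to 5, against 37.5%, 27.8%, 46.8%, 33.3% and 52.9% in control libraries 1 to 5. In that run arsenic library 5 had 0 of 13 reads at each cytosine, which allows a level of up to 23.1%. The groups did not overlap in either run, on the contrast that chose the pair. Runs need not be separate sets of reads. The cytosine at 97337913 had 39, 21, 27, 43 and 44 reads in arsenic libraries 1 to 5, against 74, 42, 53, 85 and 85 at 97337881, the last of the run of 6. The cytosine at 97338139 had 55, 34, 55, 46 and 25 reads in arsenic libraries 1 to 5, against 29, 18, 28, 25 and 13 at 97338237, the first of the run of 4, and 28, 19, 28, 25 and 13 at 97338064. Coverage at these neighbours thus stood near a ratio of 2 in all 5 arsenic libraries, so the 13 cytosines whose groups did not overlap may not be 13 separate measurements.

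Both strands were covered at 7 CpGs of the pair. The reads of both strands were in the tile counts that chose the pair, so their group differences are a description and no separate support. Their plus-strand mean was 19.9%, 12.1%, 10.8%, 10.3% and 2.38% in arsenic libraries 1 to 5, against 39.9%, 37.7%, 18.97%, 18.9% and 6.39% in control libraries 1 to 5. Their minus-strand mean was 9.31%, 14.1%, 13.3%, 15.5% and 14.7% in arsenic libraries 1 to 5, against 40.1%, 30.1%, 27.2%, 37.4% and 31.6% in control libraries 1 to 5. The group means differed in the same direction on both strands, by -13.3 points on the plus strand and -19.9 points on the minus strand. On the minus strand all control libraries lay above all arsenic libraries. On the plus strand the groups overlapped, with control libraries 3, 4 and 5 below arsenic library 1. At the plus-strand cytosine at 97337814 control library 2 had 0 of 43 methylated reads, which allows up to 6.98%, while its neighbours at 97337792 and 97337825 had 22 of 45 and 22 of 43.

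The strands of these 7 CpGs differed at single CpGs by more than the counting error expected if every read call were separate. Over the 10 libraries the plus-strand mean minus the minus-strand mean was -5.60 points (SD 11.02), negative in 8 libraries, with p = 0.146 in a two-sided exact sign-flip permutation test, and -1.54 points without control libraries 4 and 5. In single CpGs and libraries the difference between strands was over 20 points in 15 of 70 cases. Its root mean square was 15.2 points, where the read counts alone give 8.71 points, a ratio of 1.75. In the rest of the locus the ratio was 3.51 over 19 CpGs, with 2.30 over the 8 in low tiles and 4.43 over the 11 in high tiles. The high tiles include the CpGs at 97341712 and 97341861, described below, whose strands differed widely in both groups and raise this ratio. Counts of methylated reads above 0 were even at 66.0% of values in the pair, 64.3% in the rest and 57.7% in the whole table. Whether both mates of a read pair, or copies of a molecule, were counted was not tested. The reads behind a level may stand for fewer molecules, and the ratios given here may then be too high.

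**Figure D4:**
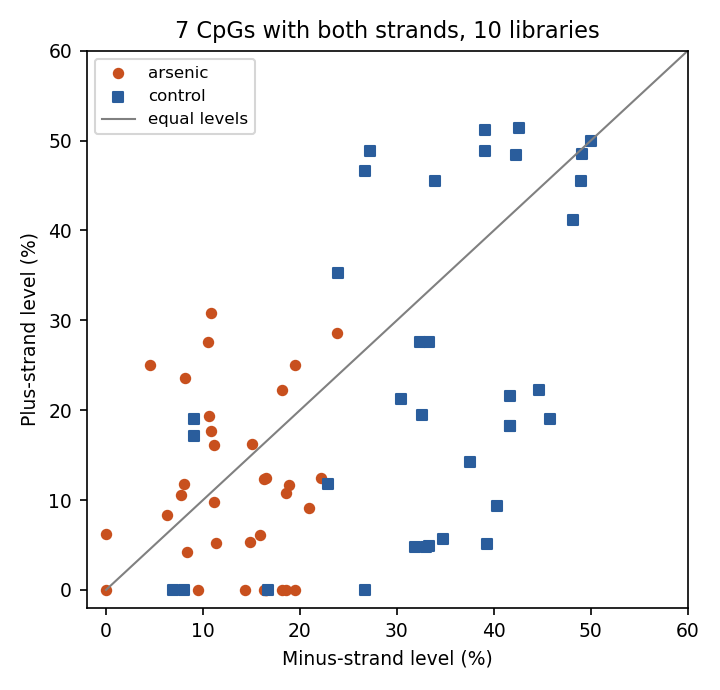
Plus-strand against minus-strand methylation level (%) at the 7 CpGs of the tile pair covered on both strands, 1 point per CpG and library, with the line of equal levels. All arsenic points lie below 25% on the minus strand, while control points reach 50% on the minus strand and 51.4% on the plus strand.

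In the first tile the spread between libraries exceeded, in both groups, the counting error expected if every read call were separate. Cytosines of a tile may share reads, so the true counting error may be larger and the ratios given here too high. The SD was 2.59 times the SD that read counts give in arsenic and 2.90 times in control. In the tile at 97338001 the ratio was 0.888 in arsenic and 2.05 in control. The 4 other low tiles of the gene had ratios of 1.84 to 3.36 in arsenic and 2.77 to 5.67 in control, and the tile at 97341001, the most methylated of those with over 4 CpGs, had 1.096 in arsenic and 1.203 in control.

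Outside the pair no difference between the groups passed a test. Over the 67 cytosines of the rest the mean was 60.4%, 59.0%, 56.9%, 58.4% and 58.5% in arsenic libraries 1 to 5, against 54.3%, 59.3%, 57.9%, 59.5% and 59.4% in control libraries 1 to 5. Control library 1 was the lowest of the 10, and the groups overlapped. The difference was 0.548 points, with p = 0.698 in a two-sided exact permutation test whose smallest p is 0.00794. Without control libraries 4 and 5 it was 1.46 points (exact p = 0.321), without control library 1 it was -0.406 points, and with each read weighted equally it was -1.22 points, so its sign was not stable. In the low tiles of the rest the means were 21.8% ± 2.50 in arsenic and 20.9% ± 3.73 in control (exact p = 0.667), and in the high tiles 88.5% ± 0.563 in arsenic and 88.3% ± 1.43 in control (exact p = 0.762). Adjusted over these 3 comparisons p was 0.762 for each. In the quasi-binomial model the 8 other tiles had adjusted p of 0.867 to 0.999, and 0 of them had an unadjusted p under 0.05. The largest of their 8 differences in size was 8.79 points, at 97335001, with 88.9%, 82.9%, 95.5%, 81.8% and 91.3% in arsenic libraries 1 to 5, against 70.6%, 87.5%, 68.4%, 78.9% and 91.0% in control libraries 1 to 5. The tile at 97336001, which adjoins the pair, stood at 23.8%, 18.8%, 18.8%, 28.6% and 20.2% in arsenic libraries 1 to 5, against 15.6%, 22.1%, 18.5%, 28.7% and 11.1% in control libraries 1 to 5. Its groups overlapped, with control libraries at both extremes. In the low tile at 97344001 the level was 20.9%, 12.3%, 21.8%, 9.499% and 17.6% in arsenic libraries 1 to 5, against 9.92%, 23.9%, 7.62%, 4.73% and 22.7% in control libraries 1 to 5, and again the control libraries held both extremes.

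A CpG of the high tile at 97341001 had strands of opposite level in every library. Its plus-strand cytosine at 97341712 stood at 97.8% ± 4.86 in arsenic and 99.7% ± 0.710 in control, and its minus-strand cytosine at 97341713 at 8.33% ± 4.28 in arsenic and 7.51% ± 10.8 in control. At the CpG at 97341861 the plus strand stood at 44.7% ± 8.62 in arsenic and 50.8% ± 9.93 in control, and the minus strand at 90.9% ± 5.61 in arsenic and 93.1% ± 3.84 in control. A base variant against the reference at these CpGs was not tested. The groups overlapped at all 4 of these cytosines.

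At the ends of Gpr179, the window of 1000 bp on each side of the 3' end held 6 CpGs and stood at 30.8% ± 9.51 in arsenic and 33.2% ± 13.0 in control (quasi-binomial adjusted p = 0.975), while the window at the start held 0 covered CpGs. Those 6 CpGs are the ones of the tile at 97332001 described above, so this is no further measurement. The neighbour Mrpl45, a mitochondrial ribosomal protein gene that reaches into the lower flank, had no covered cytosine there. Socs7, a member of the suppressor of cytokine signalling family and the next gene on the other side, stood at 1.54% ± 1.17 in arsenic and 1.36% ± 0.903 in control at its lower end (adjusted p = 0.977).

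Genes whose products work with Gpr179 in the mGluR6 cascade were examined at whichever end held more covered CpGs, be it the start or the 3' end. Of 15 genes in the list 11 had at least 3 covered CpGs, and the quasi-binomial model called 0 of them higher and 0 lower, where it called 0% of 14221 gene ends in either direction. Groups did not overlap with arsenic lower at 0.661% of all gene ends and with arsenic higher at 0.281%, and 916 gene ends had an unadjusted p under 0.05. Without adjustment 1 member had p under 0.05, Gnao1, the G protein alpha subunit of the cascade, at 0.626% ± 0.289 in arsenic and 1.57% ± 0.966 in control (adjusted p = 0.762). Gng13, a G protein gamma subunit, stood at 1.59% ± 1.56 in arsenic and 0.813% ± 0.471 in control (adjusted p = 0.852). Gpr158, the receptor closest to Gpr179, stood at 4.21% ± 2.06 in arsenic and 5.63% ± 2.82 in control (adjusted p = 0.867). The arsenic mean was lower in 6 members and higher in 5, with a median difference of -0.947 points, against -0.291 over all gene ends tested.

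The tiles outside the locus whose levels were most like those of the pair were chosen by the mean absolute difference over the 10 libraries, and choosing them so also matches the group difference. The closest, at 2.34 points, lay in the zinc finger gene Zfp977 (chromosome 7, 42592001 to 42593000, 4 CpGs), at 15.7% ± 3.004 in arsenic and 30.9% ± 4.83 in control. Another lay in Pnmal1 (chromosome 7, 16956001 to 16957000, 9 CpGs), at 17.4% ± 1.86 in arsenic and 27.7% ± 4.34 in control. The remaining 3 lay outside genes, 24146 bp from Gm42283, 310509 bp from Gm25090 and 6514 bp from Gm8384, with mean absolute differences of 3.14, 3.19 and 3.31 points.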

How the data were processed

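Per the submitters' processing notes, Trim Galore 0.6.5, Bismark 0.22.3, methylKit 1.22.0 and build mm10 were used by the authors, with settings not given in the sources used here. The deposited table holds, per the file headers, raw counts per cytosine, strand and library (all, methylated and unmethylated reads), unnormalized, and the lowest coverage was 10.

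The members, lists and tests were chosen with earlier results of these data known. Gene positions came from RefSeq on GRCm38.p6, the assembly behind mm10; all 15 list symbols matched. Tiles were 1000 bp with at least 3 covered CpGs. The quasi-binomial model had a group term and a Pearson dispersion squeezed across features as in limma, not under 1, with an F test and Benjamini-Hochberg adjustment over all features; it was tested on simulated data. Single values were compared with exact permutation tests. Named were all tiles of the locus, both gene ends, overlapping and next genes, the 3 list members with the smallest p and the 5 most alike tiles; Socs7, runs, stretches and single cytosines outside the pair were chosen after their values were seen. Alternatives were a coverage of 20, read weighting, summed strands, other windows, limma on log2 ratios (pseudocount 0.5), a replicate block and leaving out libraries. Python 3.11.15, numpy 2.4.6, scipy 1.17.1, pandas 2.3.3, matplotlib 3.10.9, R 4.3.3 and limma 3.58.1 were used.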

Additional observations from a re-analysis of the deposited data

Results flagged for a closer look

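Of 60 sets of 5 library values examined for a library far from the others, 1 stood out; chance gives about 1 in 20. In the tile at 97338001, with each cytosine weighted equally, arsenic library 5 stood at 8.38%, and the other arsenic libraries at 12.2% to 13.7%. Its coverage at some of these cytosines was 13 reads.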

How the results depend on the processing

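The pair's difference between the groups of -14.1 points was -20.2 points over the 9 cytosines with a coverage of at least 20, where 8 rather than 13 cytosines had groups that did not overlap. Without 1 library at a time it was -15.05 to -13.0 points. The count was then 13 to 15, but leaving out a library can only keep or raise it, so this is no check of stability. The pair minus the rest was -36.6 to -34.2 points without 1 library at a time (exact p = 0.00391, the smallest possible). Most of the rest lay in high tiles, so the sign and this p-value were bound to hold. Against the low tiles alone, which leaves out the high tiles by construction, the pair stood 1.79 points higher, an average of opposite signs in the groups. The small difference in the rest of the locus changed sign when each read was weighted equally, to -1.22 points, and without control library 1, to -0.406 points; without 1 library at a time it reached 0.984 points. The strand difference was -7.40 to -3.42 points without 1 library at a time and -1.54 points without control libraries 4 and 5; at a coverage of at least 20 no CpG kept both strands. The count of called tiles was 1 with tiles starting 500 bp later, the Gpr179 tile, and 1 with limma, a tile on the X chromosome; limma gave the pair adjusted p of 0.973. It stayed at 0 under the other settings run, as did the count for the mGluR6 list in the settings run for it, which did not include shifted tiles or at least 5 CpGs. With shifted tiles, the 1 tile called without arsenic library 5, and the 1 called with limma, was not the Gpr179 tile. With the replicate block the rest of the locus gave an exact p of 1.0. That sign-flip test over 5 differences cannot give a p under 0.05, so it could not have found a difference. With the block the count of called tiles was 0, and the shifted Gpr179 tile had an adjusted quasi-binomial p of 0.145. Libraries of the same number did not deviate together across tiles (r of -0.0124 to 0.0165, and 4 of 10 libraries correlated best with their own number). The cause of these changes was not tested. The low-tile comparison, the settings for single cytosines and those for the shifted tile were added after seeing the data. Depth limits single cytosines: 34 of 390 values in the pair were 0, and 0 of 15 reads allows up to 20%.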
